A study of Mus musculus with 12 samples.

Results

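The cytosolic ribosomal protein genes encode the protein part of the ribosome that translates nuclear mRNAs. Members were the rows of the gene count table of mouse inguinal white adipose tissue (iWAT) whose symbol is Rpl or Rps followed by a number, or Rpsa, Rplp0, Rplp1 or Rplp2, and which are annotated as protein-coding. Named pseudogenes (131 rows), the Rps6k kinases (9 rows) and 5 other non-coding rows were left out. This gave 85 of 33200 rows, 51 with an Rpl or Rplp symbol and 34 with an Rps symbol or Rpsa, and all 85 were among the 16656 genes tested. By role they comprised 43 proteins of the large (60S) subunit, 31 of the small (40S) subunit, the 3 P stalk proteins, 7 paralogues of core proteins, and Rps19bp1, which the symbol rule takes in although its product binds Rps19 and is no ribosomal protein.

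The study compared wild-type C57BL/6 mice with mice carrying a global, CRISPR/Cas-made deletion of Nrep (KO), all on a standard maintenance diet and 16 weeks old when tissue was taken. Poly(A)-selected RNA of iWAT was sequenced from 3 wild-type and 3 KO biological replicates. The 6 liver samples of the series were not analysed here. Because the deletion is global, every cell type of the tissue carries it. How many founder lines it came from, and the sex of the mice, were not stated in the labels.

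A ribosome joins a small subunit, which reads the mRNA, to a large subunit, which forms the peptide bonds. Most of its proteins are present once per ribosome, and cells make them in balance with one another and with ribosomal RNA, much of the control being exerted on translation of mRNAs that begin with a C and a stretch of pyrimidines, the terminal oligopyrimidine (TOP) tract. In adipose tissue these mRNAs come from fat cells and from every stromal and immune cell present, so a bulk library sums over all of them. In such a library, fewer cells of a type and less RNA per cell cannot be told apart.

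The libraries held 17970451 to 20369345 counts. Nrep, the deleted gene, had counts of 1404, 1640 and 1300 in the wild-type libraries and of 2, 2 and 5 in the KO libraries (log2 fold change -8.72 ± 0.27 SE, adjusted p = 1.82e-05), so each library matched its genotype label. Adipocyte markers such as Adipoq were abundant in all 6 libraries, whereas summed epithelial markers stayed between 3.06 and 11.8 CPM (counts scaled to a common library size). KO replicate 2 stood apart from the other KO libraries in the ribosomal protein genes and in several cell type marker lists, and results are therefore given with and without it. Its Nrep count was as low as that of KO replicate 1. P-values of the gene tests set the group difference against the spread between these replicates (n = 3 per group), estimated with help from the other genes.

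The 5′ ends of a few members are shown first, because the pyrimidine tract at the transcription start is the sequence feature for which these genes are known, and because the members shown include genes with the lowest fold changes and genes that departed from the rest. Each line gives 30 bases of the sense strand in RefSeq's GRCm38.p6 promoter table, 10 before the listed start and 20 from it on, and capitals mark the longest run of a C followed by at least 4 bases that are each C or T.
Rps6 (chr4:86857348-86857377, minus strand): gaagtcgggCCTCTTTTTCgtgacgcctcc
Rps15a (chr7:118116128-118116157, minus strand): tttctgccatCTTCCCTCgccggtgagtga
Rps27 (chr3:90213629-90213658, minus strand): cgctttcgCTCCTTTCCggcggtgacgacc
Rpl14 (chr9:120571507-120571536, plus strand): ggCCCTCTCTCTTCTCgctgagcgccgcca
Rplp2 (chr7:141447641-141447670, plus strand): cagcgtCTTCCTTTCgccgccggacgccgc
Rpl22l1 (chr3:28805498-28805527, plus strand): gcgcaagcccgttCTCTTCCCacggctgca
Rps27l (chr9:66946076-66946105, plus strand): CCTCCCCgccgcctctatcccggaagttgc
Rps19bp1 (chr15:80264287-80264316, minus strand): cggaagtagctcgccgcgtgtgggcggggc
Rpl3l (chr17:24727816-24727845, plus strand): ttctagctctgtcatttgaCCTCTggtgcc

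For Rps27l and Rpl3l, which have 2 listed starts each, the first is printed. In Rps6, Rps15a, Rps27, Rpl14 and Rplp2 the run lay across or directly at the listed start. In Rps27l it lay wholly before the start, in Rpl22l1 and Rpl3l it began within the transcribed bases, and in Rps19bp1 there was none. The table matched 65 members with 77 listed starts, and 20 members were without an entry. A C at the listed start followed by 4 pyrimidines, searched on the sense strand only, was present at 14 of the 77 starts (18.2%) and at 823 of 32851 starts of all genes (2.51%). An unbroken run of 8 pyrimidines within 30 bases on either side of the start was present at 37 of the 77 (48.1%) and at 7535 of all starts (22.9%). A listed start can lie some bases from the start used in this tissue, so these shares describe the annotation.

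The ribosomal protein genes moved together from library to library. They were low in KO replicates 1 and 3, and at or above wild type in KO replicate 2. The summed members took 4.33%, 4.68% and 4.18% of the counts in the wild-type libraries and 3.01%, 4.81% and 2.73% in the KO libraries. The highest and the lowest share were thus both KO libraries, and the groups overlapped. The mean share was 4.40% ± 0.255 (SD, n = 3) in wild type and 3.52% ± 1.13 (SD, n = 3) in KO, a difference of -0.876 percentage points that was smaller than the SD of the KO group. It was -1.52 without KO replicate 2 and -0.483 without KO replicate 3. With the mitochondrially encoded genes taken out of the total, the shares were 4.63% ± 0.194 and 3.81% ± 1.16.

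Each member's level in a library was also expressed as its log2 CPM minus the mean of the 3 wild-type libraries. The median of this difference over the 85 members was -0.02, 0.09 and -0.06 in wild type, -0.36 in KO replicate 1, 0.16 in KO replicate 2 and -0.46 in KO replicate 3. KO replicate 1 was below every wild-type value for 82 of the 85 members, where 39.7% of all tested genes were. The exceptions were Rpl3l, Rps19bp1 and Rps27l. KO replicate 3 was below every wild-type value for 80 members (42.9% of all genes), with Rpl39l and Rplp2 as further exceptions. KO replicate 2 was below every wild-type value for 0 members (27.9% of all genes) and above every wild-type value for 62 (29.9% of all genes). It held the highest value of all 6 libraries for 61 members (14.0% of all genes). KO replicate 3 held the lowest for 61 (31.8% of all genes).

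**Figure D1:**
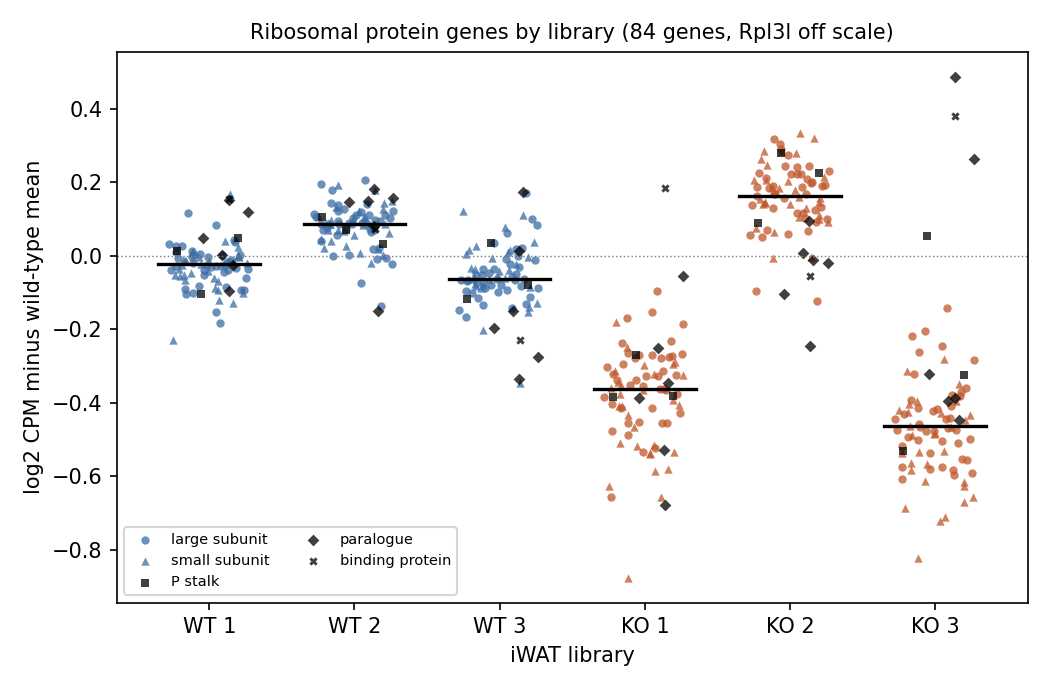
Log2 CPM of 84 ribosomal protein genes in each iWAT library (x axis) minus the gene's wild-type mean (y axis), with the symbol shape giving the role, colour the genotype of core proteins and the bar the median. KO replicates 1 and 3 lie around -0.36 and -0.46 and KO replicate 2 around 0.16, while Rpl3l is off the scale.

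In the test of KO against wild type (edgeR's quasi-likelihood F-test over all tested genes, called at an adjusted p of 0.05), 0 members were called higher, against 0.865% of all tested genes, and 0 were called lower, against 0.162%. At an unadjusted p of 0.05 there was 1 member, Rpl3l. DESeq2 called 1 member higher, again Rpl3l (7.34% of all genes), and 0 lower (3.6%), with 2 members at an unadjusted p of 0.05. Limma-voom called 0 higher (0.0901% of all genes) and 0 lower (0.006%), with 3 members at an unadjusted p of 0.05. The estimated log2 fold change was negative for 81 of 85 members and for 55.8% of all tested genes. The 81 became 83 with library totals alone, 80 with DESeq2's size factors and 77 with upper-quartile factors. It was 75 without KO replicate 1, 75 without KO replicate 3 and 78 without wild-type replicate 2. Leaving out any other single library gave 81 or 82. The median log2 fold change was -0.20 over the members and -0.06 over all tested genes, and 73 members lay between -0.35 and -0.10. The CPM of the groups overlapped for 84 members. Groups that did not overlap were seen for 1 member with KO higher, Rpl3l (15.2% of all genes), and for 0 with KO lower (13.1%).

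Without KO replicate 2, the same test called 23 members lower (10.9% of all tested genes) and 1 higher (14.5%). The median log2 fold change of the members was then -0.36, and 60 of them were lower at an unadjusted p of 0.05. The share of all tested genes at that unadjusted threshold is not given, for this or the other unadjusted counts. These counts therefore cannot be read against a background. KO replicate 2 was high in the very values tested, so its removal lowers the KO mean and narrows the KO spread by construction. Of the 23, 12 were small subunit proteins (among them Rps3, Rps6, Rps12, Rps13, Rps15a, Rps18, Rps23 and Rps27) and 10 were large subunit proteins (Rpl10, Rpl12, Rpl13, Rpl13a, Rpl14, Rpl27, Rpl34, Rpl36a, Rpl37 and Rpl39). The other was the paralogue Rpl22l1. With counts of named pseudogenes added to their parent genes and KO replicate 2 left out, 18 members were called lower (10.8% of all genes) and 1 higher (14.4%). Rpl10, Rpl14, Rpl27, Rps6 and Rps23 did not pass there.

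**Figure D2:**
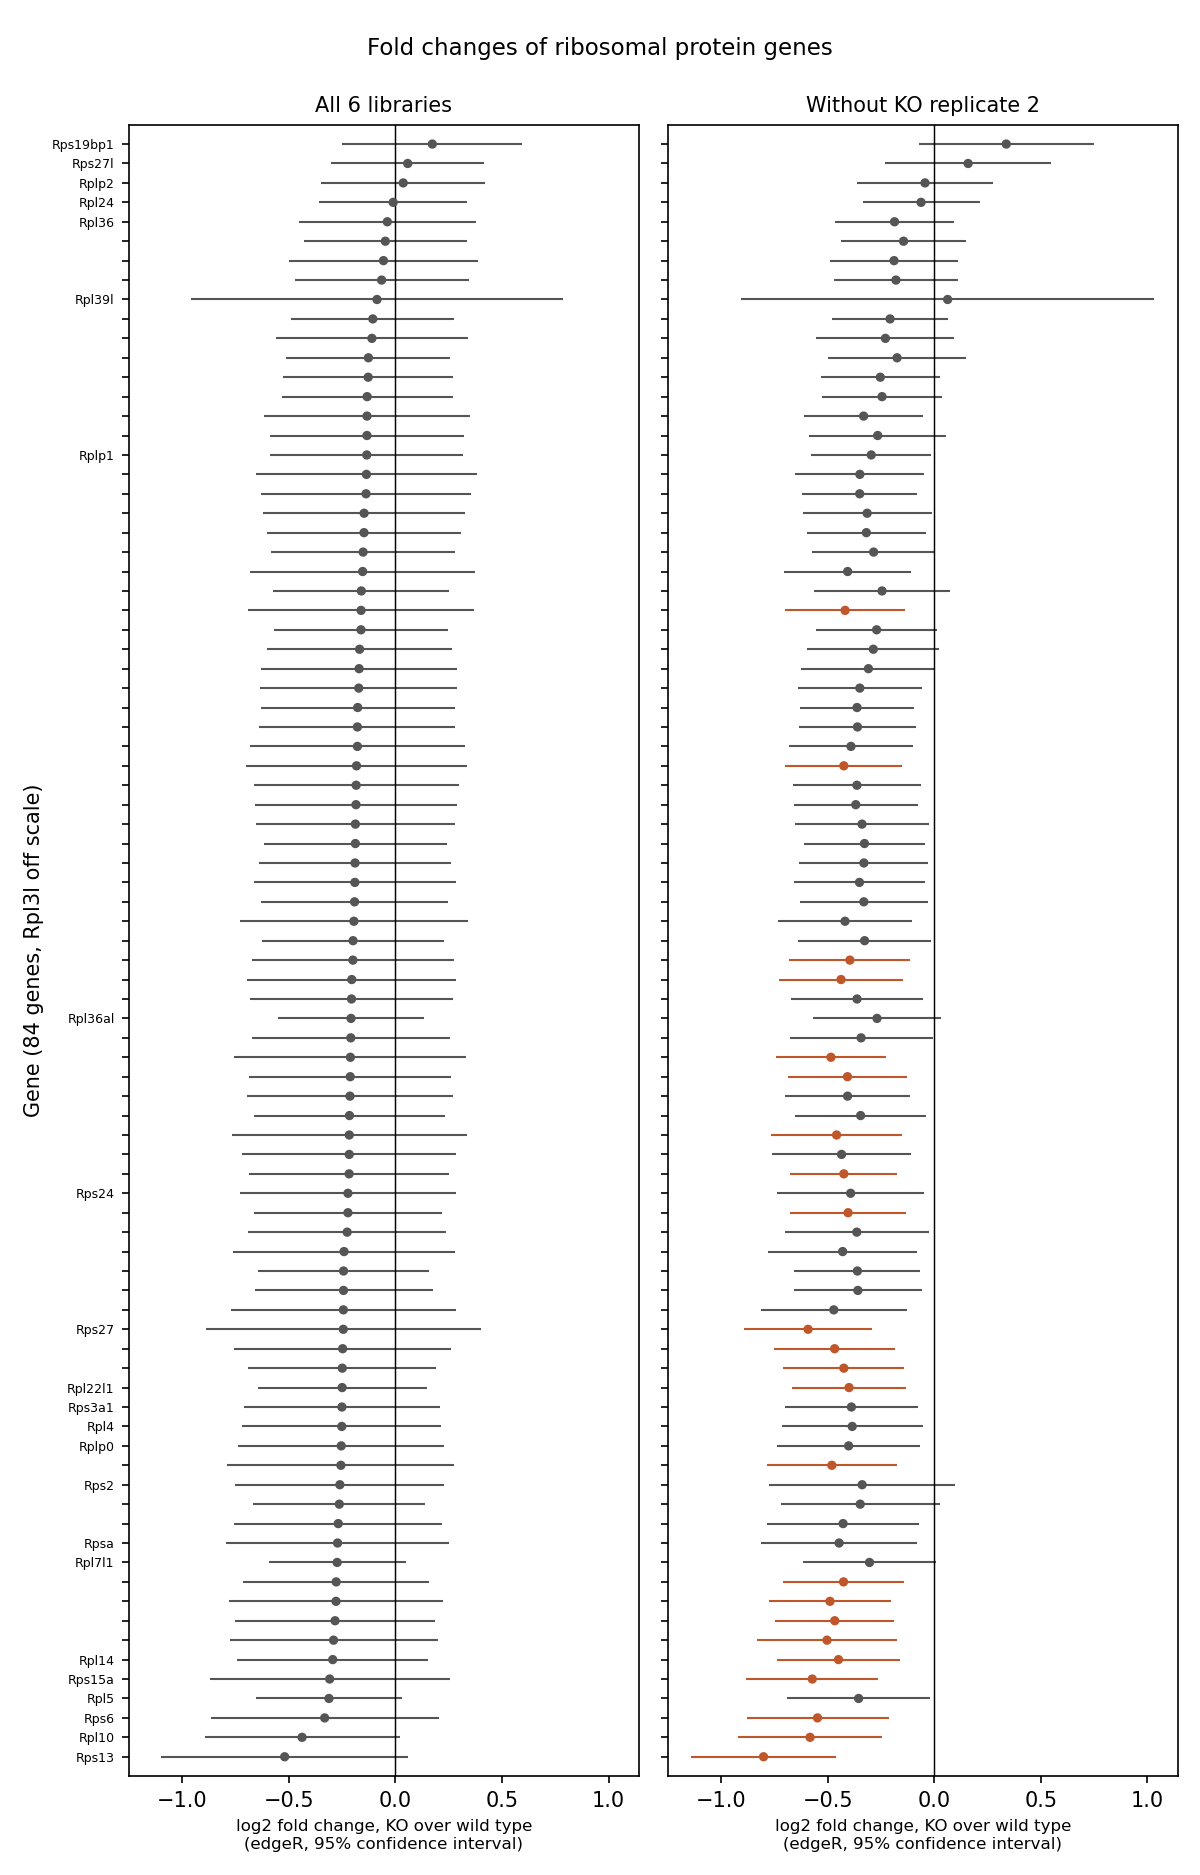
Log2 fold change of 84 ribosomal protein genes, KO over wild type, in all 6 libraries (left) and without KO replicate 2 (right). Bars are 95% confidence intervals derived from the F statistic of edgeR's test. Genes are ordered by the left panel, those described by value are labelled, and Rpl3l is off the scale. Coloured genes pass an adjusted p of 0.05, none on the left and 23 on the right.

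In the 3 KO libraries, summed adipocyte, lymphocyte and progenitor markers stood in the same or the reverse order of the ribosomal protein share. Since 3 libraries have few possible orders, such a match carries little weight. Among the wild-type libraries the adipocyte sum was again in the reverse order, and the progenitor sum in the same order. The lymphocyte sums followed neither order there. The 12 mature adipocyte markers summed to 15854 to 19830 CPM in wild type, to 30677 and 36560 in KO replicates 1 and 3, and to 20812 in KO replicate 2. All 12 had positive log2 fold changes, and edgeR called 1 of them higher, DESeq2 10 and limma-voom 0. The 9 B cell markers summed to 1273 to 1427 CPM in wild type, 655 and 327 in KO replicates 1 and 3, and 1425 in KO replicate 2. The 9 T cell markers summed to 561 to 695 CPM in wild type, 423 and 268 in KO replicates 1 and 3, and 836 in KO replicate 2. In both lymphocyte lists, then, the KO libraries stood in the same order as in the ribosomal protein share, and in the adipocyte list in the reverse order. The 10 progenitor and fibroblast markers had 7321 to 9026 CPM in wild type and 5520, 4256 and 7899 in the KO libraries, also the reverse order. For them KO replicate 2 was the furthest from wild type, and KO replicate 3 lay within the wild-type range. The 11 macrophage markers summed to 3041 to 4461 CPM in wild type, in the same order as the share. In the KO libraries their sums of 2178, 2378 and 2253 followed neither order. Lyz2, a large part of the sum, was at 1099, 1472 and 896 CPM there, the order of the share. For every other macrophage marker except Cd68, KO replicate 2 was the lowest of all libraries. The 7 endothelial markers summed to 934 to 1049 CPM in wild type and 1150, 1186 and 1385 in KO, following neither order in either genotype. Of the 46 lymphocyte, macrophage, progenitor and endothelial markers, edgeR called 0 with all libraries, with 17 at an unadjusted p of 0.05, DESeq2 called 10 and limma-voom 0. Without KO replicate 2, edgeR called all 9 B cell markers and 8 of 9 T cell markers lower (10.9% of all tested genes). It called all 12 adipocyte markers higher (14.5%), in the same fit that called 23 ribosomal protein genes lower. KO replicate 2 was the KO library nearest to or beyond wild type in these lists, so its removal widens their differences by construction. These calls thus add no independent weight. The part of these cell types in the ribosomal protein values was not tested.

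**Figure D3:**
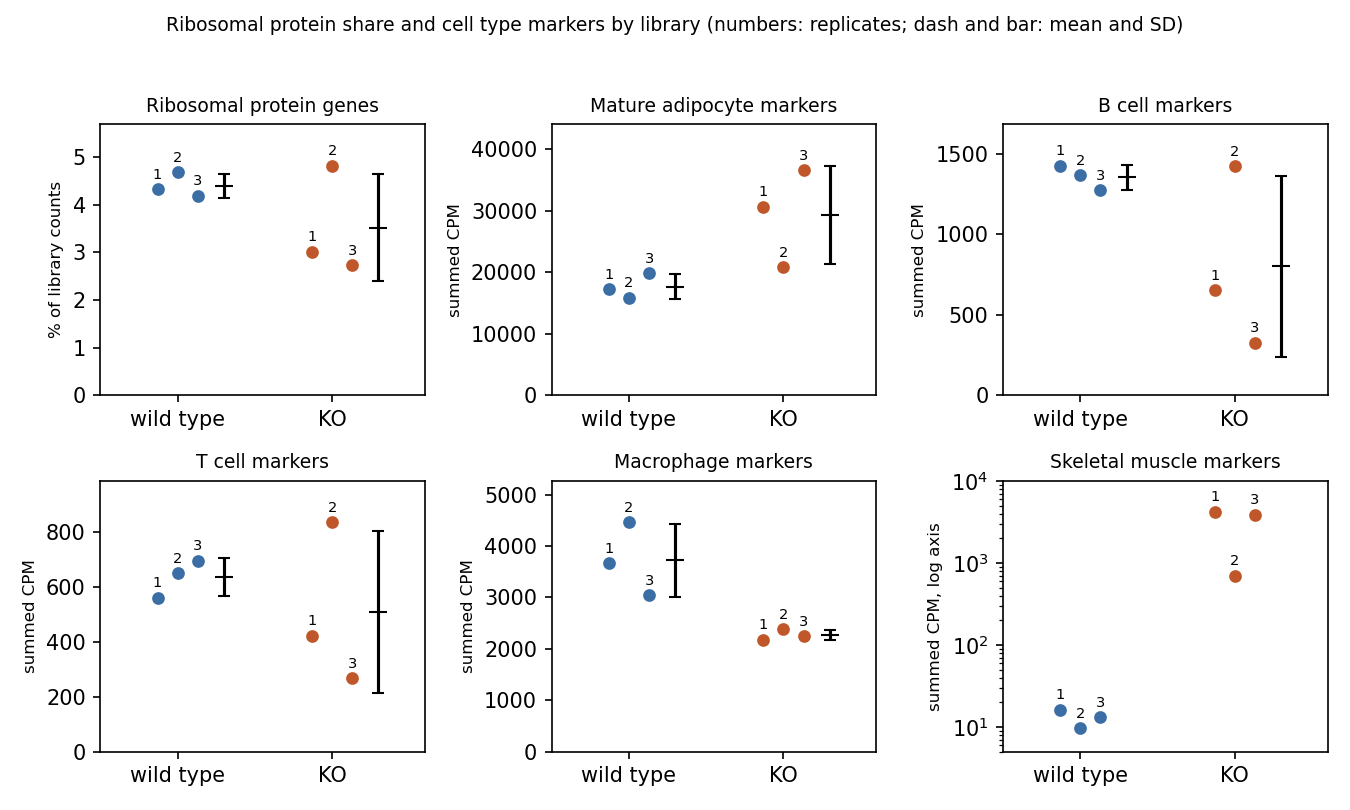
Ribosomal protein genes as a percent of library counts, and summed CPM of 5 marker lists, for each wild-type and KO library (points numbered by replicate, with mean and SD beside them except on the log axis of the muscle panel). KO replicate 2 lies within or above the wild-type points in ribosomal protein share, B cell and T cell markers, and below the other KO libraries in muscle markers.

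Among the 43 large subunit proteins, all 43 log2 fold changes were negative in the fit of all libraries, from -0.44 to -0.01 with a median of -0.19. Rpl10, a protein that joins the large subunit late in its assembly, had the lowest. Its levels were 421, 492 and 382 CPM in wild type and 272, 402 and 282 in KO (log2 fold change -0.44 ± 0.20 SE, adjusted p = 0.236). KO replicate 2 lay inside the wild-type range, and the other KO libraries below it. With KO replicate 2 left out Rpl10 was called lower (log2 fold change -0.58, adjusted p = 0.025).

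Rpl5, which carries 5S ribosomal RNA into the large subunit together with Rpl11, was at 34.9, 32.5 and 40.3 CPM in wild type and 29.5, 32.8 and 24.3 in KO (log2 fold change -0.31 ± 0.15 SE, adjusted p = 0.256). Rpl14 was at 471, 507 and 441 CPM in wild type and 326, 492 and 339 in KO (log2 fold change -0.29 ± 0.19 SE, adjusted p = 0.385). For both genes the groups overlapped through KO replicate 2 alone. Rpl4, which lines the exit tunnel of the nascent chain, showed the library pattern with little spread in wild type. Wild type spanned only 1158 to 1187 CPM, while KO replicates 1, 2 and 3 were at 942, 1229 and 782. Its log2 fold change was -0.25 ± 0.20 SE (adjusted p = 0.47).

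The large subunit proteins nearest to 0 were Rpl24 and Rpl36. Rpl24, part of a bridge between the subunits, was at 362, 392 and 354 CPM in wild type and 345, 420 and 334 in KO (log2 fold change -0.01, 95% confidence interval -0.36 to 0.34). Rpl36 was at 155, 179 and 159 CPM in wild type and 135, 203 and 142 in KO (log2 fold change -0.04, interval -0.45 to 0.38). Both still had their 2 lowest values in KO replicates 1 and 3 and their highest in KO replicate 2. The sign of the estimate turned positive in 7 of the 22 alternatives for Rpl24 and in 5 for Rpl36. Upper-quartile scaling (0.05 and 0.02) was among them for both genes, and DESeq2's size factors (0.03) for Rpl24.

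All 31 small subunit proteins likewise had negative log2 fold changes in that fit, from -0.52 to -0.06 with a median of -0.22. Rps13, which lies at the interface with the large subunit, had the lowest of all members. It was at 238, 270 and 205 CPM in wild type and 129, 235 and 133 in KO (log2 fold change -0.52 ± 0.25 SE, adjusted p = 0.26). Unlike most members, Rps13 had a KO replicate 2 value close to the wild-type mean, with KO replicates 1 and 3 far below it. Without KO replicate 2 it was called lower (log2 fold change -0.80, adjusted p = 0.00983).

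Rps6, the substrate of the S6 kinases, was at 840, 928 and 763 CPM in wild type and 580, 902 and 528 in KO (log2 fold change -0.33 ± 0.23 SE, adjusted p = 0.41). Rps15a was at 494, 560 and 494 CPM in wild type and 355, 583 and 312 in KO (log2 fold change -0.31 ± 0.24 SE, adjusted p = 0.463). In both, KO replicates 1 and 3 lay below all wild-type libraries. Without KO replicate 2, Rps6 (log2 fold change -0.55, adjusted p = 0.0298) and Rps15a (-0.57, adjusted p = 0.0206) were called lower.

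Rpsa, a small subunit protein also known as the laminin receptor, took the most counts of all members, a quantity that also depends on mRNA length. It was at 1461, 1569 and 1292 CPM in wild type and 1094, 1549 and 936 in KO (log2 fold change -0.27 ± 0.23 SE, adjusted p = 0.487). Rps24 was at 1171, 1170 and 1166 CPM in wild type and 953, 1294 and 757 in KO (log2 fold change -0.22 ± 0.22 SE, adjusted p = 0.553). The 3 wild-type values of Rps24 had an SD of 2.69 CPM, against 272 in KO, whose libraries lay on both sides of wild type. Rps3a1 was at 1069, 1145 and 1112 CPM in wild type and 863, 1168 and 763 in KO (log2 fold change -0.25 ± 0.20 SE, adjusted p = 0.465). Rps2, which lies at the mRNA entry channel, was an exception to the tight wild-type group, with 1235, 1246 and 864 CPM there and 858, 1097 and 836 in KO (log2 fold change -0.26 ± 0.21 SE, adjusted p = 0.476). Wild-type replicate 3 of Rps2 thus lay at the level of KO replicates 1 and 3.

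The P stalk, which recruits the translation factors that hydrolyse GTP, is built from Rplp0 and dimers of Rplp1 and Rplp2. Rplp0, often used as a reference gene in quantitative PCR, was at 1328, 1416 and 1213 CPM in wild type and 1008, 1399 and 910 in KO (log2 fold change -0.25 ± 0.21 SE, adjusted p = 0.481). Rplp1 was at 550, 543 and 503 CPM in wild type and 408, 621 and 424 in KO (log2 fold change -0.13 ± 0.20 SE, adjusted p = 0.692). Rplp2 was at 195, 220 and 215 CPM in wild type and 174, 255 and 218 in KO (log2 fold change 0.04 ± 0.17 SE, adjusted p = 0.91). Rplp2 was the only core protein gene whose estimate was above 0. Its KO replicate 3 value lay within the wild-type range, although that library was the lowest for Rplp0. The sign of the Rplp2 estimate turned in 4 of the 22 alternatives, among them library totals alone (-0.09). None of the 3 passed the test with or without KO replicate 2, where their log2 fold changes were -0.40, -0.30 and -0.04.

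Rpl3l departed from the other members in direction and size. Rpl3l, the form of Rpl3 found in striated muscle, was counted 2, 1 and 1 times in wild type and 108, 14 and 139 times in KO. All 3 KO libraries were above wild type. Summed over each group, 4 against 261 counts gave a ratio of 65.2 per total count (exact 95% interval 25.2 to 241, which covers counting error only). The edgeR log2 fold change was 6.08 ± 1.08 SE (adjusted p = 0.0514), just short of the call, and DESeq2 called it higher (adjusted p = 2.34e-07). Over the alternatives the adjusted p ran from 2.34e-07 to 0.217. Without KO replicate 2 edgeR also called it higher (log2 fold change 6.65, adjusted p = 9.32e-05). The 12 skeletal muscle markers moved with it. They summed to 16.4, 9.70 and 13.3 CPM in wild type and 4201, 698 and 3882 in KO, edgeR calling 10 of the 12 higher, DESeq2 all 12 and limma-voom 1, Acta1. In wild type, Ckm and Tcap had 0 counts in replicate 2, as did Pvalb, and Myh4 had 0 in replicate 3. The order of the KO libraries in Rpl3l counts (14, 108, 139) had replicate 2 lowest, as in the muscle markers. The part of muscle tissue in the Rpl3l counts was not tested.

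The other paralogues were read against their parents as a ratio within each library, which does not depend on the scaling between libraries. With 7 pairs of 3 against 3 libraries, the exact two-sided permutation test cannot give a p below 0.1, and no pair could pass. Rpl22l1, which can stand in for Rpl22, was at 30.1%, 28.7% and 27.9% of the Rpl22 count in wild type and at 22.3%, 26.4% and 26.2% in KO (mean 28.9% ± 1.10 against 24.9% ± 2.34, SD, exact p = 0.1, 0.35 after Benjamini-Hochberg adjustment over the 7 pairs). All 3 KO ratios were below all 3 wild-type ratios, by -0.22 on the log2 scale. Rpl3l was at 0.0124%, 0.00511% and 0.00591% of Rpl3 in wild type and 0.919%, 0.0714% and 1.24% in KO (exact p = 0.1, adjusted 0.35).

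Rps27l, a p53 target, was at 12.0%, 10.5% and 8.28% of Rps27 in wild type and 14.6%, 7.94% and 19.96% in KO (log2 difference 0.38, exact p = 0.5). This difference was 0.09 without KO replicate 3 and 0.75 without KO replicate 2. Its own level was 50.9, 52.3 and 38.7 CPM in wild type and 45.1, 46.3 and 56.3 in KO (log2 fold change 0.06 ± 0.16 SE, adjusted p = 0.837, or -0.08 with library totals alone). So KO replicate 3, the lowest library for most members, was the highest for Rps27l, while Rps27 itself was at 426, 497 and 467 CPM in wild type and 308, 583 and 282 in KO. The ratios of Rpl36al to Rpl36a (75.1% ± 3.18 against 77.6% ± 8.88, SD), Rpl7l1 to Rpl7 (9.90% ± 0.781 against 9.66% ± 1.09, SD) and Rpl39l to Rpl39 (1.05% ± 0.207 against 1.19% ± 0.723, SD) differed by less than their spread, with exact p from 0.8 to 0.9. Of these, Rpl7l1, a nucleolar relative of Rpl7, was at 92.5, 99.1 and 78.1 CPM in wild type and 68.3, 83.1 and 71.6 in KO (log2 fold change -0.27 ± 0.14 SE, adjusted p = 0.279). Rpl39l, a testis-enriched form, had only 18 to 44 counts per library. Rps19bp1 was at 11.1, 10.4 and 8.46 CPM in wild type and 11.3, 9.56 and 12.9 in KO (log2 fold change 0.17 ± 0.18 SE, adjusted p = 0.581), and thus did not share the library pattern of the ribosomal proteins.

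**Figure D4:**
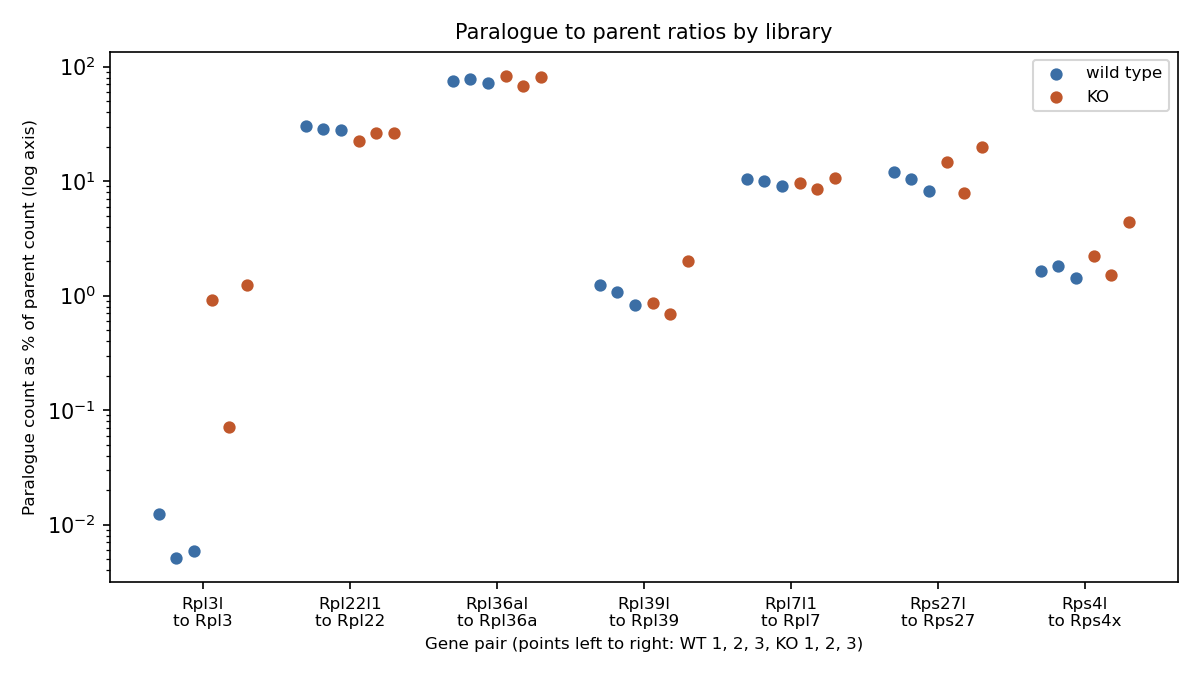
Count of each paralogue as a percent of its parent's count (log axis) in the 3 wild-type and 3 KO libraries, for 7 pairs, the non-coding Rps4l included. Rpl3l and Rpl22l1 are the pairs whose wild-type and KO points do not overlap, with opposite directions.

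Divided by mRNA length, levels of the 77 subunit and stalk genes can be compared with one another. Their median was 655 CPM per kilobase in wild type, with quartiles of 448 and 901. Rpl23a was highest at 1737 CPM per kilobase. Rpl5, Rpl12 and Rps12 were far below the others, at 17.5, 21.7 and 33.9 CPM per kilobase, although each protein is a regular part of the subunit. The deposited counts of these 3 genes were not whole numbers in all 6 libraries, as for 43 of the 85 members. The labels do not say how reads shared with other rows were divided. Rows of pseudogenes named after Rps12 held 174%, 206% and 227% of the Rps12 count in wild type and 195%, 121% and 184% in KO. The level given for Rps12 leaves these counts out. Across the 77 genes the log2 fold change and the mRNA length had a Spearman correlation of -0.33, given as a description, since the genes share all 6 libraries.

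Summed Rpl and Rplp counts were 1.26, 1.26 and 1.27 times the summed Rps and Rpsa counts in wild type and 1.31, 1.27 and 1.33 times in KO. The means were 1.26 ± 0.00587 and 1.30 ± 0.0332 (SD, n = 3), with KO replicates 1 and 3, where both sums were low, above all wild-type libraries and KO replicate 2 inside their range. The medians of the log2 difference from the wild-type mean were -0.41 (small subunit) and -0.34 (large subunit) in KO replicate 1, and -0.49 and -0.47 in KO replicate 3, differences that were not tested and that lie within the spread of the members of either subunit. The difference in this ratio was 0.04 in all libraries, 0.06 without KO replicate 2 and 0.02 without KO replicate 3.

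Some of the genes with the lowest estimates have near-identical copies in the table. Rows of pseudogenes named after Rps13 held 33.3%, 21.9% and 48.4% of the Rps13 count in wild type and 81.0%, 63.7% and 67.4% in KO. For Rpl10, whose copy Rpl10-ps3 is annotated as protein-coding, the figures were 115%, 103% and 126% in wild type and 167%, 136% and 159% in KO. For Rps6 they were 27.8%, 20.8% and 34.0% in wild type and 43.7%, 25.9% and 38.7% in KO. With pseudogene counts added to the parent, the log2 fold change was -0.18 for Rps13 in place of -0.52, -0.21 for Rpl10 in place of -0.44 and -0.25 for Rps6 in place of -0.33, while the median of all members was -0.19. For Rpl14 the figures were 5.16%, 5.22% and 11.3% in wild type and 22.8%, 10.7% and 9.96% in KO. Those of Rps15a held at most 0.107% of its count. Rpl5 had no named pseudogene row, but copies under other names were not searched, and its counts were fractional in all 6 libraries. Whether reads were misassigned or the copies are transcribed was not tested. Named pseudogenes together took 0.198% of the counts in wild type and 0.176% in KO.

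Scaling the libraries by the summed ribosomal protein counts in place of TMM asks which members departed from their own group. It set the members' median log2 fold change to 0.00 and moved the median of all genes by 0.24. Under it 1 member was called higher, Rpl3l (adjusted p = 0.0372, against 0.528% of all genes), and 0 were called lower (0.054%), with 1 member at an unadjusted p of 0.05. The log2 fold change was then -0.34 for Rps13, -0.23 for Rpl10, 0.22 for Rpl24 and 0.17 for Rpl36.

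Genes that work beside the members were read from the fit of all libraries, where edgeR called 0 of 77 in 4 lists, with 10 at an unadjusted p of 0.05. DESeq2 called 2 of them, Deptor higher and Tsr1 lower, and limma-voom 0. Among the 3 ribosomal proteins that carry other names, Rack1, on the head of the small subunit, was at 760, 815 and 698 CPM in wild type and 540, 824 and 503 in KO (log2 fold change -0.28, adjusted p = 0.453). Rack1 thus had the library pattern of the members. The fusion gene Fau, which yields Rps30, had an estimate of 0.09, which was -0.03 with library totals alone.

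Of 21 other transcripts with a TOP tract, 3 of which (Gas5, Snhg1 and Snhg8) are non-coding, 18 had negative log2 fold changes, with a median of -0.15. Eef1a1, the elongation factor that delivers aminoacyl-tRNA, was at 7485, 7951 and 7077 CPM in wild type and 6456, 7768 and 5669 in KO (log2 fold change -0.18, adjusted p = 0.643). Eef2, the translocation factor, was at 0.00 (adjusted p = 0.998) and Tpt1 at -0.15 (adjusted p = 0.621). Of 36 ribosome biogenesis genes, 32 were negative, with a median of -0.22. Ddx21, a nucleolar helicase, was at 134, 147 and 129 CPM in wild type and 94.7, 120 and 83.6 in KO (log2 fold change -0.46, adjusted p = 0.144). Its groups did not overlap, and without KO replicate 2 it was called lower (log2 fold change -0.56, adjusted p = 0.0173), as were 4 more of the 36, Fbl, Heatr1, Nop56 and Tsr1. These 5 of 36 stand beside 10.9% of all tested genes called lower there, a share near the background. Ncl (-0.19) and Ubtf (-0.23), which act in the nucleolus on ribosomal RNA transcription and processing, did not pass the test.

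Of 17 genes of mTOR and Myc control, 12 had positive log2 fold changes, with a median of 0.12. Deptor, an inhibitor of mTOR, was at 105, 95.3 and 104 CPM in wild type and 221, 129 and 180 in KO (Deptor log2 fold change 0.80 ± 0.20 SE, adjusted p = 0.0759). Its groups did not overlap and KO replicate 2 was again the KO library nearest to wild type. DESeq2 (adjusted p = 0.00417) and edgeR without KO replicate 2 (log2 fold change 1.04, adjusted p = 0.00345) called Deptor higher, and over the alternatives its adjusted p ran from 0.00283 to 0.288. Without KO replicate 2, edgeR called 4 of the 17 higher (14.5% of all tested genes), namely Deptor, Eif4ebp1, Mtor and Tsc2, and 1 lower (10.9%), Myc. These include both activators and inhibitors of the pathway. In the fit of all libraries, Mtor, the kinase itself, had an estimate of 0.36 (adjusted p = 0.129), Eif4ebp1, a repressor of cap-dependent translation, 0.63 (adjusted p = 0.162), Tsc2, an inhibitor of mTOR, 0.29 (adjusted p = 0.2), and Myc, an activator of ribosomal protein gene transcription, -0.50 (adjusted p = 0.143). Eif4ebp2, a repressor of cap-dependent translation, and Mxd4, a Myc antagonist, had estimates of 0.15 (adjusted p = 0.486) and 0.28 (adjusted p = 0.247).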

How the data were processed

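Poly(A) RNA of 3 wild-type and 3 KO iWAT samples was sequenced from stranded libraries, per the labels' protocols. The table the authors deposited holds unscaled estimated counts, with a column for each library, of which 9.53% to 11.1% were fractional. Its quantifier and build are not given in the sources used here. Tools and builds in the submitters' processing notes, without a role or tissue, are fastp, featureCounts, GRCm38 and GRCm39. How reads shared by near-identical genes were assigned is not given either.

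Counts were rounded to whole numbers. Symbols and lengths came from GENCODE M21 (26384 of 33200 rows had a symbol, 79.5%), a length being that of the shortest basic transcript with the gene's longest coding sequence. Genes were kept by filterByExpr, and KO was compared with wild type by the two-sided quasi-likelihood F-test of edgeR 4.0.16 in R 4.3.3 on genotype alone, with TMM factors and robust dispersions. P-values were adjusted over 16656 genes (Benjamini-Hochberg) and called at 0.05. CPM are TMM-scaled. Paralogue ratios used log2 of counts plus 0.5. Promoter windows came from RefSeq (GRCm38.p6). DESeq2 1.42.0, limma-voom (limma 3.58.1), other scalings, filters and thresholds, pseudogene counts added to parents, leaving out each library and a block on the replicate number were alternatives. Scaling by ribosomal protein counts, removing muscle markers, and combining pseudogene counts with leaving out KO replicate 2 were chosen after seeing the data. In counts simulated for the same comparison (16656 genes, 200 of them changed), edgeR found 51% of the 2-fold and 96% of the 4-fold changes, and 15 of its 162 calls were false, against 58 of 231 for DESeq2. Each gene was simulated independently. These rates therefore need not hold for smaller changes, or where many genes shift together in a library, as in KO replicate 2.

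The members and lists were chosen with earlier results of these data known. Genes named by rule were Nrep, members past the test, the 6 members with the highest mean CPM, the 6 members at either end of the log2 fold changes (at least 2 CPM), the P stalk, Rpsa, Rps6, the paralogues and Rps19bp1, and the 3 genes of highest mean CPM in each companion list. Others were named after their values were seen. Some genes that this rule names are not reported here. Rpl10l was not in the table, and Rps4l is annotated there as a non-coding row.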

Additional observations from a re-analysis of the deposited data

How the results depend on the processing

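Over the 22 alternatives the members' median log2 fold change lay between -0.36 and 0.00. The upper end came from scaling by ribosomal protein counts, which sets this median near 0 by construction. The next highest was -0.07, without KO replicate 3. The number of members called lower was 0 except without KO replicate 2 (23, and 18 with pseudogene counts added as well). The number called higher was 1, Rpl3l, with DESeq2's size factors, upper-quartile factors, DESeq2, non-robust estimation, an adjusted p of 0.10, scaling by ribosomal protein counts, the replicate block, and without KO replicate 2, with or without pseudogene counts added, and 0 in the others. Genes called over the whole table, 144 higher and 27 lower, were 1223 and 600 with DESeq2, 15 and 1 with limma-voom, 928 and 442 without a low-count filter, 920 and 458 at an adjusted p of 0.10, and 88 and 9 scaled by ribosomal protein counts. They were 218 higher with upper-quartile factors and 49 lower with library totals alone, which moved the median of all genes by -0.13. Leaving out single libraries gave 0 to 2410 higher and 1 to 1811 lower over all genes, 0 to 1 higher and 0 to 23 lower over the members, and 2406 and 1807 over all genes without KO replicate 2 with pseudogenes added, so the call of lower members rests on leaving out that library. Leave-one-out ranges of the log2 paralogue difference crossed 0 for Rpl36al (-0.016 to 0.14), Rpl39l (-0.40 to 0.37) and Rpl7l1 (-0.12 to 0.047), and ran from 0.088 to 0.75 for Rps27l and from 0.18 to 0.95 for Rps4l. Among values of single named genes under an alternative, 724 kept sign and call, 28 passed the test anew and 39 changed sign without passing it; the cause was not tested.

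With the replicate number as a block, 790 genes were called higher and 435 lower, and 1 member, Rpl3l (adjusted p = 0.00839). The labels do not say that a number marks a shared litter or day. Same-numbered libraries deviated together with correlations of -0.01, 0.20 and 0.11. KO replicates 2 and 3 correlated best with the wild-type library of their own number, and KO replicate 1 with wild-type replicate 3 (0.14). These values do not settle whether the numbers pair the samples. The main fit left the block out because the labels state no pairing.

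With 3 libraries a group, differences of the members' median size lie inside the 95% intervals of most single genes. Counts of members that share reads with pseudogenes depend on how those reads were divided, and levels per length on the transcript chosen; Rps20's is long, so its level is understated.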

Other observations

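Other named pseudogene rows also carried many counts. Rps23-ps1 held 5621, 6677 and 6645 counts in the wild-type libraries and 4250, 7111 and 3795 in the KO libraries, which was 129% to 133% of the Rps23 count in every library. Rpl10a-ps1 held 67.5% to 89.7% of the Rpl10a count, Rpl31-ps8 51.7% to 57.9% of the Rpl31 count, and Rps16-ps2 41.8% to 47.2% of the Rps16 count.

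Rps4l, a row left out as a transcribed processed pseudogene, was counted 319, 450 and 318 times in wild type and 324, 368 and 621 times in KO. That was 1.63%, 1.83% and 1.44% of the Rps4x count in wild type and 2.23%, 1.52% and 4.40% in KO (log2 difference 0.60, exact two-sided permutation p = 0.3, adjusted 0.7 over 7 pairs). The difference was 0.18 without KO replicate 3 and 0.95 without KO replicate 2. KO replicate 3 was the high library, and it was also the high one for Rps27l and Rpl39l.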
